A study of Mus musculus with 40 samples.

Results

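MMERGLN is a family of mouse endogenous retroviruses, and its copies in the deposited table were taken as every repeat whose name holds a part that starts with MMERGLN. The rule found 507 copies among 835636 repeat copies. They were measured in 40 poly(A) RNA libraries of YUMM1.7 melanoma cells passaged serially through mice. The family was chosen because it has a high signal and because its summed signal was low in the later N2 passages, so the N2.1, N2.2 and N2.3 libraries, and each comparison with F2 or Balb/c-1 that uses them, are described here without a test. The question addressed is which of the 507 copies carry the family's signal, and how those copies vary between tumours and passages.

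YUMM1.7 is a cell line from a melanoma of a C57BL/6 mouse, so the tumour cells of all groups share its alleles, and no drug treatment is given in the labels. The groups were cells from tumours of passages F0 (4 tumours), F1 (4), F2 (5), N2.1 (5), N2.2 (3), N2.3 (3), Balb/c-1 (4), Balb/c-2 (3) and CBA (3), a second library from each of the 3 tumours of Balb/c-2, called Balb/c-2 rep2, and 3 libraries of the YUMM1.7 cells themselves. Tumours were dissociated and the cells grown in culture before RNA was extracted, so cultures may hold host cells too, and each passage occurs once, so a difference between passages cannot be told apart from any other difference between those rounds. The labels do not give the ages of the host mice, the meaning of N2, or the tumour from which each passage was started. They name sequencing rounds without assigning libraries to them, but the names of the 3 Balb/c-2 rep2 and 3 CBA libraries carry an added code that the other library names lack, and the last part of that code is shared by these 6 except rep2 tumour B. The passages Balb/c-1, Balb/c-2 and CBA carry the names of inbred strains of mice.

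Retroviruses of the gamma type carry a long terminal repeat (LTR) at each end and gag, pro, pol and env genes between them. The LTR holds the promoter and the signal for adding the poly(A) tail, so a provirus can be transcribed from its own first LTR and end in its own last one. The GLN family takes its name from the primer-binding site, the stretch that pairs with the 3′ end of glutamine tRNA at the start of reverse transcription, and 1 GLN copy has been reported as able to form infectious particles. Where a lone LTR remains after recombination between both ends, it is annotated by the LTR name alone. In the table MMERGLN-int is the internal region and MMERGLN_LTR the LTR, and a name joining both marks a copy that holds both.

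The sequences that matter most here belong to the copy that held most of the family's signal, on chromosome 8. In the GENCODE M21 annotation of GRCm38 (mm10) this provirus lies on the plus strand at chr8:121832845-121841264 and forms exons of a lincRNA, Gm42047, inside the span of the longer gene Gm20388. The annotated transcript starts within the provirus, 432 bases of which precede its primer-binding site. The first 60 bases of that transcript, chr8:121833247-121833306, are shown because they hold the feature that names the family: 30 bases precede the 18-base primer-binding site, which is in capitals at chr8:121833277-121833294.
Gm42047 transcript start: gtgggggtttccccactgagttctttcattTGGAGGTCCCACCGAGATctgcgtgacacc

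The end of the Gm42047 exon lies in the last LTR, and 3 other full-length copies have an annotated lincRNA whose last exon ends in their own LTR, on chromosome 9 at the matching place and on chromosomes 3 and 10 somewhat before it. These ends are shown together because their copies differed widely in signal while their sequences are nearly the same. They are read on the strand of the transcript, from GENCODE transcripts, and the capitals mark the letters TATAAA (known as the core of the TATA box) and the letters ATTAAA (a variant of the poly(A) signal). The first is at chr8:121840879-121841178 on the plus strand, the second at chr3:55578105-55578381 on the minus strand, the third at chr10:25903640-25903916 on the plus strand and the fourth at chr9:25855316-25855615 on the minus strand.
Gm42047 exon end: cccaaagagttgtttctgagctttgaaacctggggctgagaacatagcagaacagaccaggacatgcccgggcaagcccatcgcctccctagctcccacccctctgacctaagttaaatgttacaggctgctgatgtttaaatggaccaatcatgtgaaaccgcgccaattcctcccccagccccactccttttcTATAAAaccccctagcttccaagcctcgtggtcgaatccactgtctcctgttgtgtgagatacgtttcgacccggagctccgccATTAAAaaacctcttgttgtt
Gm43549 exon end: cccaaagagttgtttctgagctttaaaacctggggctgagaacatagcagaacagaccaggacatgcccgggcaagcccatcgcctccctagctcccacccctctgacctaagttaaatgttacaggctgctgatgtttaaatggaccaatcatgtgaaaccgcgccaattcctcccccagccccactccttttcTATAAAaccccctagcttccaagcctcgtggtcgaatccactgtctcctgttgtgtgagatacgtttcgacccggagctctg
Gm47939 exon end: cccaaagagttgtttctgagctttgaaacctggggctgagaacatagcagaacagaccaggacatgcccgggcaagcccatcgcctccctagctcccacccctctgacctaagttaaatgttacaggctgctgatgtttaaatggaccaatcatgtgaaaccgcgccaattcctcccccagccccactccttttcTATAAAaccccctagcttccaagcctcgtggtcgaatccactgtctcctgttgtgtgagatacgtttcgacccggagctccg
Gm48362 exon end: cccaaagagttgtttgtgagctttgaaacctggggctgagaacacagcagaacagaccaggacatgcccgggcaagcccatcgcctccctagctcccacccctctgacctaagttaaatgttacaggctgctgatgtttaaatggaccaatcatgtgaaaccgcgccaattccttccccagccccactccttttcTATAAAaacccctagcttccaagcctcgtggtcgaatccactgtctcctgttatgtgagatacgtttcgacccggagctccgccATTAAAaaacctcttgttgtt

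TATAAA stood at position 196 of all 4 ends, counted from the first base shown, and ATTAAA at position 280 of the ends on chromosomes 8 and 9. The annotated exons on chromosomes 3 and 10 stop before that position, so their 277 bases do not cover it. Compared with chromosome 8 over the shown bases, the end on chromosome 3 had 2 edits, that on chromosome 10 had 0 and that on chromosome 9 had 5. Over the whole last exon, identity with chromosome 8 was 99.1% for chromosome 3 (23 edits in 2500 aligned bases), 99.2% for chromosome 10 (21 in 2500) and 98.5% for chromosome 9 (39 in 2524). The longest reading frame from ATG to stop in that exon was 1005 bases on chromosome 8, against 1611 bases on chromosome 3 and 1953 bases on each of chromosomes 10 and 9. The mean signals of the 4 copies over the 40 libraries were 42645, 122, 50.4 and 6.30, in the order shown, so copies with almost the same LTR end differed in signal by orders of magnitude. As a reference for the motifs, on either strand TATAAA occurs in 13.6% and ATTAAA in 13.9% of 32851 RefSeq promoter windows (GRCm38.p6) of 300 bases. A match to either set of letters is a description of the sequence and not a site shown to be used.

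Signal here is the authors' deposited normalised count for a repeat copy, which came to whole reads divided by 1 factor per library. Between 1280522 and 2976730 reads per library fell on the repeat copies, and 1 read was worth 0.659 to 1.51 units of signal. Libraries were made with or without strand information, and which is not given per library, so reads of the provirus and of a gene on either strand around it cannot be told apart. In every library at least 99.999% of the values lay within 0.1 read of a whole number of reads. A table of repeat copies is only a part of each library, so these sums are not the libraries' sequencing depth. Labelled as melanoma, the cells could be checked only through repeat copies in marker exons: Gpnmb, a melanosome protein, had a mean signal of 67.0, Mlana and Tyr, defining melanocyte genes, were at 0.0694 and 0.0286, and copies were present for 4 of 12 melanocyte genes. Copies in exons of 7 of 10 fibroblast genes summed to 629 to 3337 per library, led by Pdgfrb and Pdgfra, while Dcn, Thy1 and Fap were under 1. Copies of 7 of 12 immune genes summed to 2.05 to 53.1, led by Cd14 (mean 17.5), with Ptprc and Cd3e under 1. The only endothelial gene with copies, Pecam1, lay at 0 to 3.26. These are bulk samples, so fewer cells of a type and less RNA per cell cannot be told apart.

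The family's summed signal ranged over the 40 libraries between 22350.5 and 88993.9, with a median of 50262, which is 1.18% to 4.89% of all repeat signal in a library (median 2.70%). By summed signal MMERGLN-int ranked 6th of 1237 subfamilies. Its signal was concentrated in a single copy: the leading copy held 82.8% of MMERGLN-int, against 74.6% for MuLV-int, 36.1% for MMVL30-int, 29.5% for RLTR4_MM-int and 6.47% for IAPEz-int, other mouse retroviral subfamilies. Of 204 subfamilies with at least 100 copies and a summed signal of at least 1000, 5 had a larger share in 1 copy, and the median share was 19.4%.

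This chromosome 8 provirus is 8420 bases long and had a mean signal of 42645, the highest of all 835636 repeat copies. It held 82.6% of the family's mean signal and between 66.5% and 91.6% of it in single libraries. Per kb of length its mean signal was 5065, which ranked 211th among all copies.

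The second copy by signal is a 1517-base internal fragment with no LTR at chr17:34997828-34999344, between genes, with Lsm2, an RNA splicing and decay factor, on one side and Vars, the valyl-tRNA synthetase gene, on the other. Its mean signal was 6871, which ranked 8th of all copies, and it held 13.3% of the family's mean signal and between 4.04% and 29.9% of it in single libraries. Per kb its mean signal was 4529, close to that of the far longer chromosome 8 provirus. The remaining 505 copies summed to 1160 to 3352 per library, or 3.40% to 5.59% of the family.

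**Figure D1:**
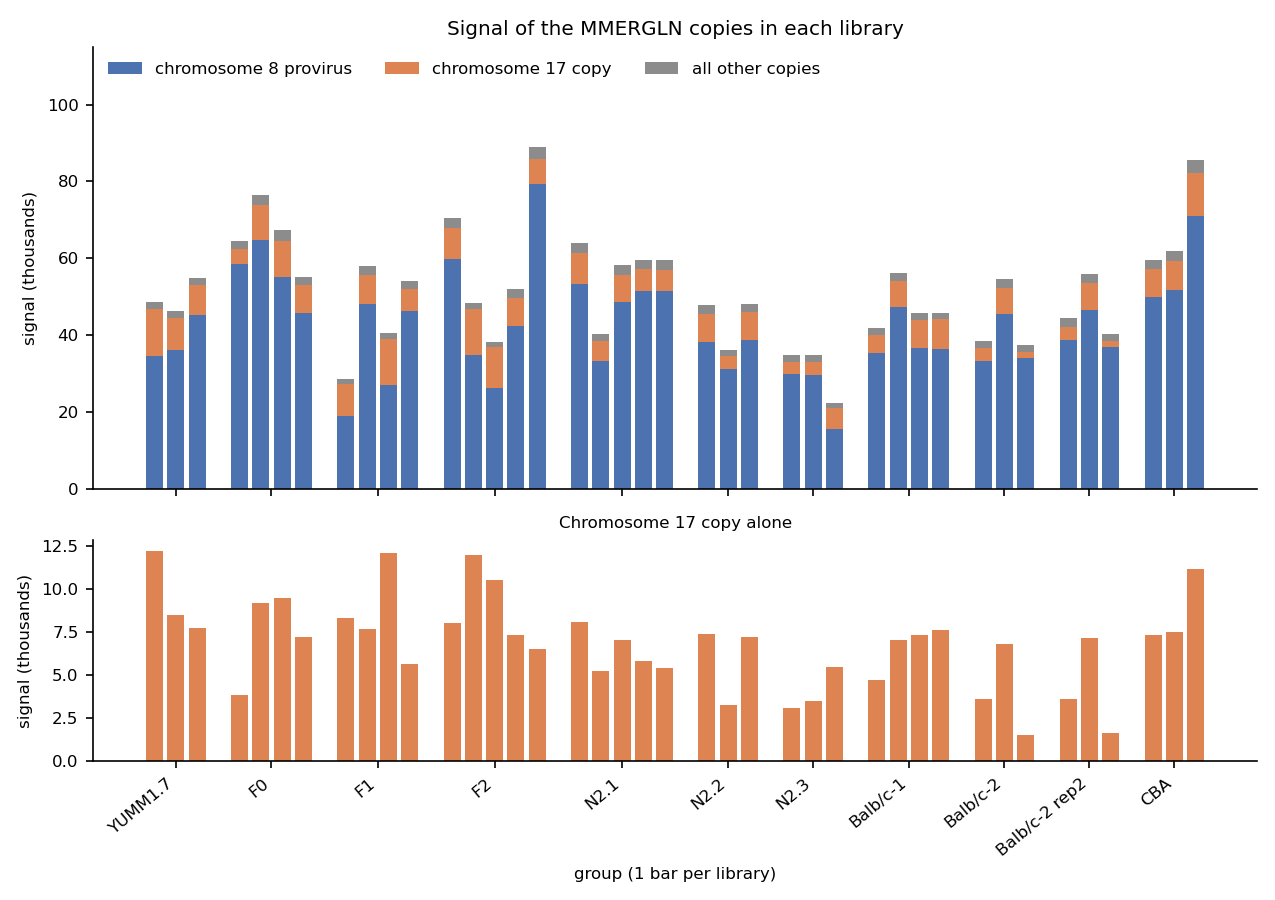
Signal of the MMERGLN copies in each of the 40 libraries, on a linear axis from 0; the stacked bars split each library into the chromosome 8 provirus, the chromosome 17 copy and all other copies, and the lower panel shows the chromosome 17 copy alone. The chromosome 8 provirus holds 66.5% to 91.6% of every bar, and the chromosome 17 copy runs between 1527 and 12233 with an order of libraries of its own.

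Below these copies the signal dropped steeply. The next proviruses by mean signal were at chr3:55577996-55586398 (122, forming exons of the lincRNA Gm43549), chr5:81625629-81634042 (117, within an intron of Adgrl3, an adhesion receptor gene), chr10:86676189-86684587 (114, between genes), chr4:11175889-11184450 (113, between genes), chr4:95254255-95262666 (102, between genes) and chr15:83193759-83202173 (84.2, between genes). Each had 0.197% to 0.286% of the mean signal of the chromosome 8 provirus. The copy at chr4:11175889-11184450 joins MMERGLN-int to another LTR type, RLTR1A2_MM, and the other 5 carry MMERGLN_LTR. A lone LTR of 412 bases at chr11:6526893-6527304, in an intron of the snoRNA host gene Snhg15, had a mean signal of 47.8, which at 116 per kb was the highest per kb after the leading copies and was singled out after its value was seen.

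Of the 507 copies, 400 had a mean signal under 1 and 63 reached the mean of 5 needed to enter a test, with 5.38 the lowest inside and 4.84 the highest outside, and 7 reached 100. A full-length form, here MMERGLN-int joined to MMERGLN_LTR over at least 7900 bases, was found in 42 copies of 7947 to 8456 bases, of which 37 were tested. These 42 held 85.3% of the signal, but without the chromosome 8 provirus the other 41 held 2.67%, at 0.640 to 14.5 per kb among the 36 tested. The other 465 copies, 26 of them tested, held 14.7%, nearly all of it in the chromosome 17 copy. Length and LTR content therefore did not separate the leading copies from the rest: one leader is a full-length provirus with 41 low counterparts, and the other is a fragment.

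By place, 35 copies overlapped an annotated exon and held 83.4% of the signal, 360 lay between genes (16.05%) and 112 lay in introns (0.559%). Without both leading copies the split was 19.4% in exons, 66.9% between genes and 13.7% in introns. Joining copies less than 1000 bases apart gave 437 proviruses or fragments, 56 of them made of several annotated copies, and the same 8 came first with a joining distance of 200 or 5000 bases.

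**Figure D2:**
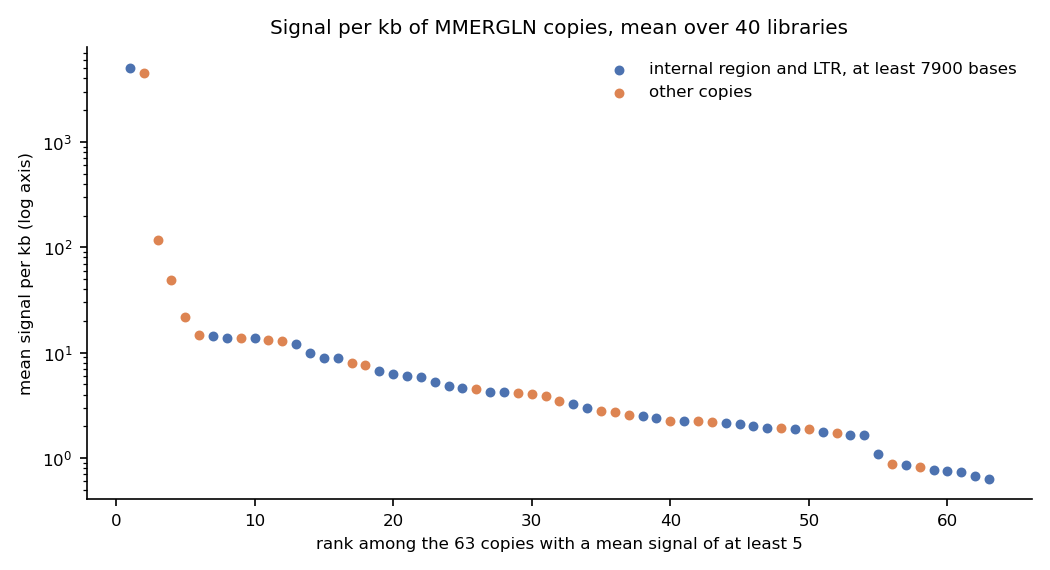
Mean signal per kb over 40 libraries (log axis) of the 63 copies with a mean signal of at least 5, ranked by that value; blue points are full-length copies and orange points the other copies. The copies on chromosomes 8 and 17 stand at 5065 and 4529 per kb, and the next, the LTR in Snhg15, at 116.

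The low full-length copies followed the chromosome 8 provirus across libraries. The sum of the remaining 505 copies correlated with it at r = 0.92 over 40 libraries on the log2 scale, and at 0.92 also for deviations from group means. Single copies correlated with it at -0.10 to 0.94 among the 36 other tested full-length copies, with a median of 0.70 and 22 above 0.6. Among the 25 other tested copies that were neither full-length nor the chromosome 17 copy the median was 0.30, with 4 above 0.6. The closest was the provirus in the Adgrl3 intron, at r = 0.94, whose signal was 0.213% to 0.339% of that of the chromosome 8 provirus in every library (median 0.277%). The 41 other full-length copies together came to 2.64% to 4.44% of it (median 3.18%). These points share a library, its scaling and, for the copies compared above, near-identical sequence, and no source used here says how reads matching several copies were assigned, so reads of 1 copy counted at another cannot be told apart from signal of both copies. The part of that in these correlations was not tested.

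By contrast, the chromosome 17 copy did not follow the chromosome 8 provirus. Their correlation over the 40 libraries was 0.18, and -0.06 for deviations from group means, and that of the chromosome 17 copy with the remaining copies was 0.16. The family sum therefore mixes a pair of patterns, and it is nearly that of the chromosome 8 provirus alone.

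Repeats around the leading copies differed in how they moved with them. After the end of the chromosome 8 provirus, 11 repeat copies within 5 kb, all in introns of Gm20388, had mean signals of 5.61 to 46.5 and correlated with it at 0.11 to 0.67 (median 0.46). The nearest, a B3 element 161 bases after it, had a mean of 22.7 and r = 0.57, a B1_Mur4 element 410 bases after it 39.3 and r = 0.67, and a B3A element 1511 bases after it 46.5 and r = 0.63. On the other side no copy within 20 kb reached a mean of 5, and the 5 that did between 20 and 100 kb correlated at -0.01 to 0.35. Signal per kb was 33.7 to 381 in the 11 copies after the provirus, against 5065 in the provirus, and the neighbours with the highest correlations lay after it.

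Around the chromosome 17 copy lay a run of repeats of high signal. Before it, an RLTR11A copy (mean 859.7), RLTR30D_RN copies (659.5 and 423.0) and a B1_Mus2 copy (246) lay 199 to 693 bases away and correlated with it at 0.93, 0.97, 0.93 and 0.73. After it, an RLTR4_Mm copy 869 bases away had a mean of 291 and r = 0.93. Between them a PB1D9 copy 367 bases away was low, with a mean of 7.15 and r = 0.50. Copies beyond 5 kb on either side had r between -0.46 and 0.46. Group means did not move alike along the run. In F2 and CBA the chromosome 17 copy averaged 8874 and 8676, RLTR11A 1013 and 866, and RLTR4_Mm 463 and 254. The nearer RLTR30D_RN copy averaged 691 and 370, the farther one 859 and 686, and B1_Mus2 224 and 322. RLTR4 is the LTR type annotated for murine leukaemia virus copies, so the stretch joins pieces named for several retroviral families.

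**Figure D3:**
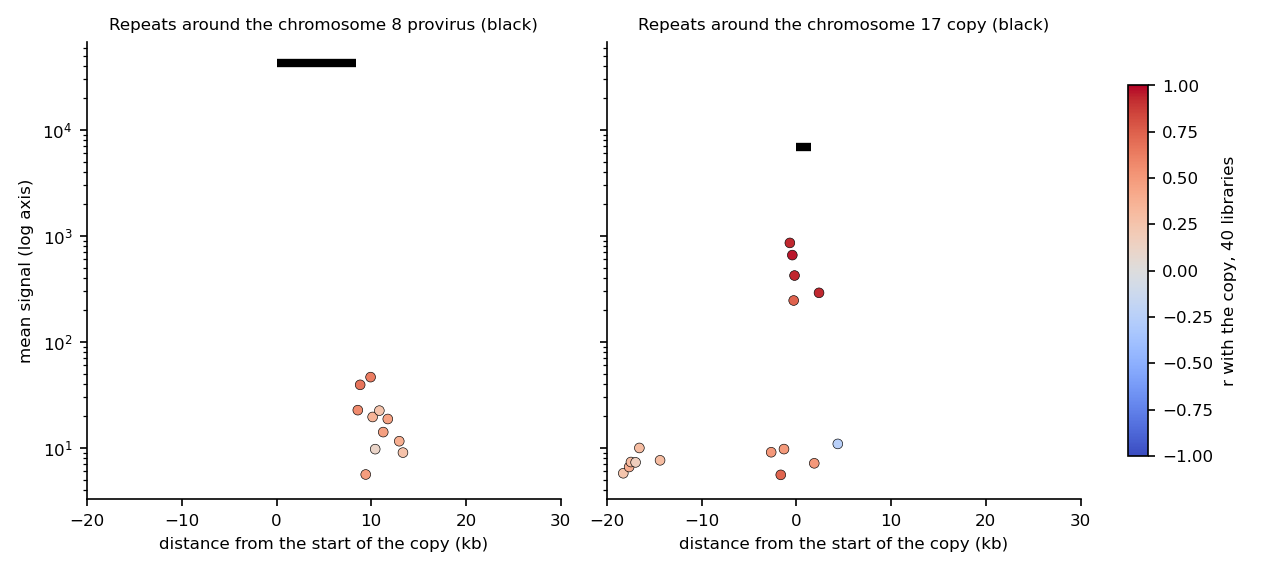
Mean signal (log axis) of repeat copies around the chromosome 8 provirus (left) and the chromosome 17 copy (right) by distance from the start of the copy in kb; the black bar is the copy itself and the colour of a point is its correlation with that copy over 40 libraries. Neighbours of the chromosome 17 copy reach 859.7 with r up to 0.97, while those after the chromosome 8 provirus stay at 46.5 or below with r up to 0.67.

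Among all copies outside the family with a mean signal of at least 20, those whose log2 signal was most like the chromosome 8 provirus over 40 libraries lay on other chromosomes. They were a B1F2 copy in an exon of Gm37795 (r = 0.79), a Charlie1a copy in an intron of Ube2b that also lies in Gm26551 (0.73), an L1ME3G copy in an exon of Wdr48 (0.73), a PB1D11 copy in an intron of Ephx1 (0.71) and a B3A copy in an intron of Tmpo (0.70). For the family without the chromosome 8 provirus the first 4 were the RLTR30D_RN copies, the RLTR4_Mm copy and the RLTR11A copy beside the chromosome 17 copy (0.90 to 0.94), followed by an ID copy in an exon of Wdr90 (0.83), also on chromosome 17. The median shift of all copies on chromosome 8 was -0.23 to 0.10 log2 units per library and correlated with the provirus at -0.02. On chromosome 17 it was -0.13 to 0.15, with r = 0.13, so neither leading copy followed its whole chromosome.

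Over the N2 passages the chromosome 8 provirus carried most of the difference that led to the choice of the family. It had 53355.5, 33125, 48533, 51445 and 51453 in N2.1 tumours A to E, 38128, 31159.6 and 38774 in N2.2 tumours A to C, and 29789, 29456.5 and 15629.5 in N2.3 tumours A to C. All 3 N2.3 libraries lay below all N2.1 and N2.2 libraries. The log2 difference on the log2(signal + 1) scale was -0.97 (SE 0.25) in N2.3 against N2.1, where the means were 24958 ± 8081 (SD, n = 3) and 47582.5 ± 8263 (SD, n = 5).

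At the chromosome 17 copy the signal was 8102, 5223, 7008, 5821 and 5402 in N2.1, 7393, 3243 and 7232 in N2.2, and 3089.96, 3510.2 and 5471 in N2.3. Here the N2.3 tumours overlapped N2.1, and the tumour with the lowest chromosome 8 value of N2.3 had the highest chromosome 17 value of the 3. The log2 difference of the chromosome 17 copy was -0.67 (SE 0.35) in N2.3 against N2.1. The remaining copies summed to 1854, 1861 and 1250.02 in N2.3, against 2591, 2018, 2678, 2267 and 2675 in N2.1, a log2 difference of -0.58 (SE 0.20).

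For the family sum the means were 56339.7 ± 9199 in N2.1 (SD, n = 5), 43978 ± 6823 in N2.2 (n = 3) and 30637 ± 7176 in N2.3 (n = 3), and the log2 difference of N2.3 against N2.1 was -0.89 (SE 0.21). Between those means the family sum differed by -25703 units of signal, and the chromosome 8 provirus by -22624 of them. Of the 63 tested copies, 53 lay lower in N2.3 than in N2.1 and 10 higher, with a median log2 difference of -0.80. Over all 33215 tested copies 17601 lay lower, with a median of -0.04. Of the 37 full-length copies, 35 lay lower, with a median of -0.81. These libraries led to the choice of the family and its copies may share reads, so the counts only describe the fall already used for the choice. In the same comparison 1.4% of all tested copies passed an adjusted p of 0.05 in limma, as background to these counts. Other subfamilies of the same class, ERV1, are given as description: none of 89 passed in either direction, and their median was 0.04. Of all 1004 subfamilies 0.299% lay higher and 0.199% lower past the threshold. MMERGLN was chosen for its fall in these libraries, so a contrast with the other subfamilies cannot show that the fall is particular to it.

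In Balb/c-1 the chromosome 8 provirus lay higher than in N2.3. Balb/c-1 tumours A to D had 35310.2, 47162, 36597 and 36476 at the chromosome 8 provirus, all above the 3 N2.3 tumours, with a log2 difference of 0.69 (SE 0.26) for Balb/c-1 against N2.3. The chromosome 17 copy differed by 0.75 (SE 0.37) and the remaining copies by 0.16 (SE 0.21; -0.035 without N2.3 tumour C), and 2.2% of all copies passed the same threshold there. F2 tumours A to E had 59755, 34745.5, 26235, 42292 and 79409.9 at the chromosome 8 provirus, a wider range than that of the 5 N2.1 tumours. The log2 difference of N2.1 against F2 was -0.03 (SE 0.18) for the family, 0.06 (SE 0.22) for the chromosome 8 provirus and -0.47 (SE 0.31) for the chromosome 17 copy, beside 9.7% of all copies that passed. The chromosome 8 value turned to -0.13 without F2 tumour C and -0.030 without F2 tumour B, and was 0.27 without F2 tumour E.

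Marker sums and the type of RNA moved in part with these groups. The fibroblast marker sum averaged 1900 ± 332 in N2.3 and 1278 ± 905 in N2.1 (SD, n = 3 and 5), the melanocyte sum 64.2 ± 11.4 and 72.4 ± 8.35, and the immune sum 16.3 ± 2.96 and 6.995 ± 3.96. In the YUMM1.7 cells themselves these sums averaged 2141 ± 580, 92.6 ± 75.9 and 13.3 ± 4.15 (SD, n = 3). The sums therefore do not separate host cells from the line's own RNA. The share of repeat signal in introns averaged 23.8% in N2.3 and 24.8% in N2.1, and over the 40 libraries it correlated with the chromosome 8 provirus at 0.44. The number of reads correlated with that provirus at -0.08. The part of these values in the differences was not tested.

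**Figure D4:**
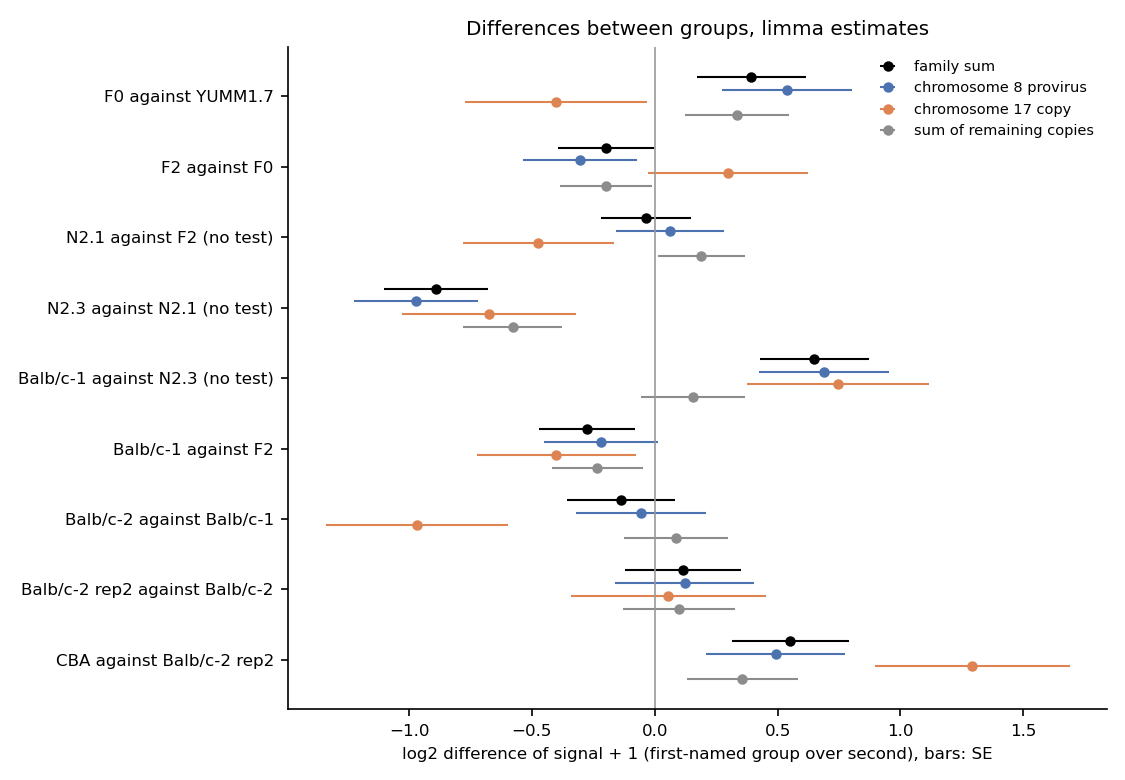
Log2 difference of signal + 1, first-named group over the second, from the limma fit, for the family sum, the chromosome 8 provirus, the chromosome 17 copy and the sum of the remaining copies; bars are standard errors and rows marked as having no test used libraries that led to the choice of the family. The chromosome 8 provirus lies at -0.97 in N2.3 against N2.1, and the chromosome 17 copy at 1.29 in CBA against Balb/c-2 rep2.

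The comparisons outside the N2 passages could be tested. In each, limma was fitted to log2(signal + 1) with 1 mean per group over all 40 libraries, and p-values were two-sided. Benjamini-Hochberg adjustment ran over all 33215 copies or all 1004 subfamilies with a mean of at least 5. To the subfamilies were added rows for the family sum and for the sum of the remaining copies, which overlap MMERGLN-int. The labels do not say that tumours of 1 passage came from separate cell preparations. The p-values measure the spread between these libraries, pooled within all 11 groups. Those groups include the YUMM1.7 cells and both libraries of each Balb/c-2 tumour, which this fit does not pair.

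In cells from F0 tumours against the YUMM1.7 cells, the family sum did not pass. At the chromosome 8 provirus the signal was 58438, 64649, 54980.2 and 45709.9 in F0 tumours A to D, against 34411, 35994 and 45188 in YUMM1.7 cells. All 4 F0 libraries lay above all 3 YUMM1.7 libraries, but D by a narrow margin. Signal at the chromosome 17 copy was 3859, 9209.69, 9464 and 7233 in F0, against 12233, 8467 and 7741 in YUMM1.7 cells, and these overlapped. The log2 difference was 0.39 for the family (SE 0.22, limma adjusted p = 0.570), 0.54 for the chromosome 8 provirus (SE 0.26, limma adjusted p = 0.581) and -0.40 for the chromosome 17 copy (SE 0.37, limma adjusted p = 0.798). As a share of the library's repeat signal, the family averaged 3.76% ± 0.445 in F0 and 2.83% ± 0.238 in YUMM1.7 cells (SD, n = 4 and 3). The two-sided exact permutation p was 0.0571, which is the smallest that 4 against 3 allows, and 0.222 after adjustment over 6 comparisons.

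No copy of the family was called in F0 against YUMM1.7 cells, and neither was any other copy (0%). By limma 6 of the 63 copies had an unadjusted p under 0.05, a threshold at which all copies were not counted here. On the recovered reads edgeR and DESeq2 called 0 of the 63. The full-length copies lay mostly above the YUMM1.7 cells, 34 of 37, with a median of 0.52. They include the chromosome 8 provirus, and the others may share its reads, so they are not separate observations of the groups. Over all copies 19627 of 33215 lay above, with a median of 0.13. The intron share of the signal averaged 23.6% ± 1.86 in F0 and 18.2% ± 1.87 in YUMM1.7 cells, and its part was not tested.

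In F2 against F0 the family sum differed by -0.20 (SE 0.19, limma adjusted p = 0.675), and the chromosome 8 provirus by -0.31 with a 95% interval from -0.77 to 0.16. The chromosome 8 values of F2 spanned those of all 4 F0 tumours. In the same tumours the chromosome 17 copy had 8013, 11990.3, 10550.2, 7316 and 6499 in F2 tumours A to E, overlapping F0, a log2 difference of 0.30 (SE 0.33, limma adjusted p = 0.806). No copy of the family was called, where 0.0391% of all copies were. By limma 2 copies of the family had an unadjusted p under 0.05, a threshold at which all copies were not counted here. Both edgeR and DESeq2 also called 0.

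Between F1 and its neighbours no test was planned. F1 tumours A, B, D and E had 18929.9, 48051, 26871 and 46347 at the chromosome 8 provirus, and 8339, 7691, 12097.5 and 5611 at the chromosome 17 copy. F1 tumours A and D thus lay below 2 of the 3 N2.3 tumours at chromosome 8.

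Balb/c-1 cells against F2 cells gave the most calls in single copies, but not at the leading ones. The family sum averaged 47377 ± 6178 in Balb/c-1 and 59577 ± 20140.2 in F2 (SD, n = 4 and 5), a log2 difference of -0.28 (SE 0.19, limma adjusted p = 0.273). The chromosome 8 provirus differed by -0.22 (SE 0.23, limma adjusted p = 0.6003), which was -0.013 without F2 tumour E and -0.41 without F2 tumour C. The chromosome 17 copy had 4682, 7026, 7344 and 7613 in Balb/c-1 tumours A to D, a log2 difference of -0.40 (SE 0.33, limma adjusted p = 0.467). Neither leading copy passed, and the Balb/c-1 values of both overlapped those of F2.

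Of the 63 tested copies, 7 were called in Balb/c-1 against F2, or 11.1%, where 13.5% of all copies were called, so the share lay near the background. By direction, 5 fell (7.94%, against 5.2% of all copies) and 2 rose (3.17%, against 8.27%). The median over the 63 was -0.32, with 42 below 0 and 21 above. Over all copies it was 0.01, with 16387 below 0 and 16816 above. Copies of the family may share reads, so the 63 are not separate observations.

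The steepest falls were at a pair of fragments on chromosome 6, both an internal region joined to an LTRIS5 element, 145 bases apart and together 7822 bases, in exons of Vmn1r43, a vomeronasal receptor gene. The fragment at chr6:89859757-89865374 had 0, 5.30, 3.84 and 1.04 in Balb/c-1 tumours A to D, against 57.4, 27.3, 23.2, 61.2 and 26.4 in F2 tumours A to E. The fragment at chr6:89865520-89867578 had 1.84, 0.883, 0 and 0 in Balb/c-1, against 14.6, 6.56, 13.7, 14.3 and 8.18 in F2. Neither overlapped between the groups, and values near 1 are those of a single read. The log2 differences were -3.71 (SE 0.65, limma adjusted p = 6.1e-05) and -2.97 (SE 0.64, limma adjusted p = 0.000946) on the log2(signal + 1) scale, which understates the change of low copies. The fragments share a provirus and are not independent of each other.

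Outside that comparison the chr6:89859757-89865374 fragment had 31.9, 20.2 and 37.7 in YUMM1.7 cells, 21.02, 16.5, 17.4 and 19.3 in F0, 8.78, 23.6, 22.5 and 10.3 in F1, 62.1, 28.6, 56.1, 38.0 and 90.3 in N2.1, 25.7, 23.4 and 16.7 in N2.2, 6.78, 26.8 and 0.757 in N2.3, 3.62, 15.7 and 2.29 in Balb/c-2, 0, 7.74 and 10.6 in Balb/c-2 rep2, and 5.23, 1.09 and 22.3 in CBA. All 4 F0 tumours lay below all 5 F2 tumours, but by a narrow margin, with 21.02 the highest in F0 and 23.2 the lowest in F2. In F2 against F0 this fragment was not called (log2 0.92, SE 0.65, limma adjusted p = 0.673), and the YUMM1.7 cells overlapped F2. Low values occurred in F1 as well as in N2.3, Balb/c-2 and CBA tumours.

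A full-length provirus between genes, chr16:55954835-55962811, also fell. It had 51.6, 43.3, 54.8 and 28.1 in Balb/c-1, against 128, 125, 89.6, 119 and 138 in F2, with no overlap and a log2 difference of -1.44 (SE 0.37, limma adjusted p = 0.00545; 0.0640 with no filter on low copies). The copy joined to RLTR1A2_MM at chr4:11175889-11184450 fell with overlap, at 37.8, 72.4, 69.2 and 38.5 in Balb/c-1 against 129, 84.2, 157, 56.4 and 134 in F2, a log2 difference of -1.002 (SE 0.32, limma adjusted p = 0.0308). That call was lost without F2 tumour A, C or E or Balb/c-1 tumour A or D, the difference then lying between -0.93 and -0.85. The fifth copy that fell, the full-length provirus at chr14:55978733-55987140 (log2 -1.32, SE 0.44, limma adjusted p = 0.0402), was not among those chosen by the naming rule and was added because the count is small. It lost its call without F2 tumour A, D or E or Balb/c-1 tumour A, C or D, at -1.27 to -1.02.

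Of the copies that rose, the one at chr2:156830632-156836331 lies in an exon of Gm14230 and is joined to RLTR1A2_MM. It had 130, 80.3, 77.8 and 79.1 in Balb/c-1, against 38.3, 51.4, 27.4, 28.7 and 18.2 in F2, with no overlap and a log2 difference of 1.503 (SE 0.40, limma adjusted p = 0.00826; 0.0778 with no filter). The full-length provirus at chr8:25122677-25130656 had 29.5, 12.4, 31.7 and 26.0 in Balb/c-1, against 2.73, 9.84, 2.11, 14.3 and 8.18 in F2. It overlapped between the groups, with a log2 difference of 1.79 (SE 0.53, limma adjusted p = 0.0180), and its call was lost without F2 tumour A or C or Balb/c-1 tumour A or C (1.495 to 1.69). Copies carrying the same names rose and fell within 1 comparison: the MMERGLN-int~RLTR1A2_MM copies on chromosomes 2 and 4 had opposite signs, and so had full-length proviruses on chromosomes 8 and 16. Without F2 tumour A, and likewise without Balb/c-1 tumour A, 4 copies of the family were called in place of 7.

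Of the 89 other ERV1 subfamilies, 17 rose and 8 fell in that comparison, with a median of 0.25, equal to the median of 0.25 over all 1004 subfamilies, of which 328 rose and 47 fell (32.7% and 4.68%). The fibroblast marker sum averaged 2192 ± 637 in Balb/c-1 and 1459 ± 513 in F2, and the immune sum 29.9 ± 5.78 and 14.1 ± 7.001. Their part in these results was not tested.

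In Balb/c-2 against Balb/c-1 no copy of the family and no other copy was called (0%). Signal at the chromosome 8 provirus was 33149, 45361.5 and 34121 in Balb/c-2 tumours A to C, with tumour B within the range of Balb/c-1 and A and C just below it, a log2 difference of -0.06 (SE 0.26, limma adjusted p = 0.964). For the chromosome 17 copy the values were 3591, 6821 and 1527 in Balb/c-2, a log2 difference of -0.97 (SE 0.37, limma adjusted p = 0.322), which was -0.40 without Balb/c-2 tumour C and -1.48 without tumour B. Tumour C had the lowest chromosome 17 value of the 40 libraries, while tumour B lay within the range of Balb/c-1. The family sum differed by -0.14 (SE 0.22, limma adjusted p = 0.797). By limma 5 of the 63 copies had an unadjusted p under 0.05, with no count over all copies at that threshold. Both edgeR and DESeq2 called 0.

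The Balb/c-2 rep2 libraries came from the same 3 tumours and show how far the copies repeat. The chromosome 17 copy had 3587.5, 7170.42 and 1628 in rep2 tumours A to C, against 3591, 6821 and 1527 in the first libraries. Between tumours it spanned 2.14 log2 units in rep2 and 2.16 in the first set, but within a tumour the sets differed by -0.00, 0.07 and 0.09. For the chromosome 8 provirus the rep2 values were 38616, 46414 and 36904, which differed within a tumour by 0.22, 0.03 and 0.11. The differences between Balb/c-2 tumours at the chromosome 17 copy were thus far larger than those between libraries of 1 tumour. Of the 63 tested copies, 28 had a mean of at least 20 in these 6 libraries, and their median difference within a tumour was 0.31 log2 units in size, the largest was 1.89, and the median span between tumours was 0.74.

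The 2 sets differ in the form of their library names, so set and any sequencing run cannot be told apart. The family sum in rep2 differed from Balb/c-2 by 0.12 (SE 0.24, limma adjusted p = 0.870), and no copy of the family was called, where 0.232% of all copies were. By limma 3 of the 63 had an unadjusted p under 0.05, with no count over all copies at that threshold. Both edgeR and DESeq2 called 0. With the tumour as a block, which the labels allow for this pair of groups, the family sum passed at the same 0.12 (limma adjusted p = 0.00871, fitted to these 6 libraries), higher in 3 of 3 tumours. Under that block 21.3% of all subfamilies passed in either direction, and 2.99% passed as higher.

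**Figure D5:**
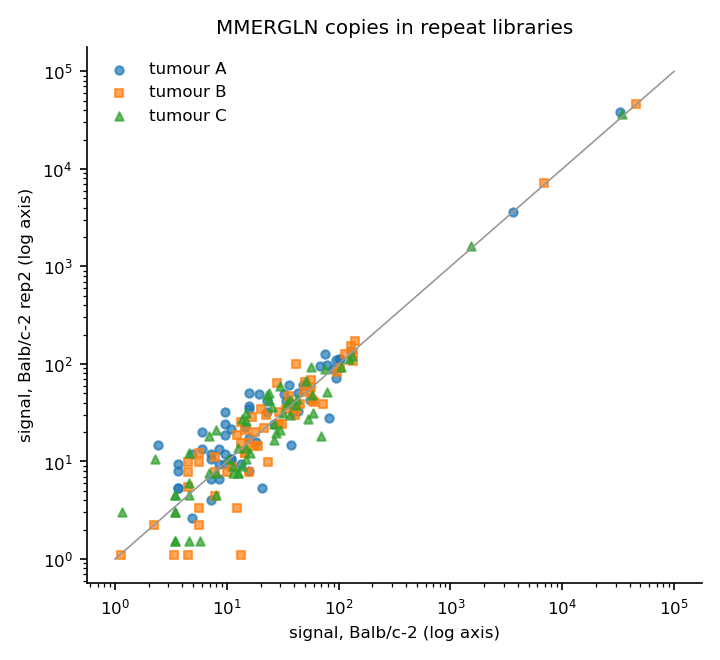
Signal of MMERGLN copies in the Balb/c-2 rep2 library (vertical, log axis) against the first Balb/c-2 library (horizontal, log axis) of the same tumour; symbols mark tumours A, B and C and the line marks equal signal. The points at the upper right are the chromosome 8 provirus, and those of the chromosome 17 copy lie on the line at 3 separate heights, between 1527 and 7170.42.

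In CBA against Balb/c-2 rep2 the chromosome 17 copy was the only copy of the family called. It had 7330.1, 7524 and 11174 in CBA tumours A to C, against 3587.5, 7170.42 and 1628 in rep2, with a log2 difference of 1.29 (SE 0.40, limma adjusted p = 0.0423, 95% interval from 0.49 to 2.09). The groups did not overlap, but the lowest CBA value and the highest rep2 value lay close together. This 1 call of 63 (1.59%) stood beside 5.93% of all copies called in either direction and 3.39% called as higher. It was lost without rep2 tumour A (1.32, limma adjusted p = 0.0930) or rep2 tumour C (0.75, 0.355). The same held without CBA tumour A (1.40, 0.0760), CBA tumour B (1.38, 0.0676) or CBA tumour C (1.10, 0.186). With TMM or median-of-ratios scaling it was lost too (1.17 and 1.18, limma adjusted p = 0.0831 and 0.0761). Of 10 alternative settings that kept every library of these groups, 4 kept the call. Adjusted p from limma, edgeR or DESeq2 ran from 0.0378 to 0.220 over those settings.

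In CBA the chromosome 8 provirus had 49970.4, 51836 and 71010.2, all above the 38616, 46414 and 36904 of rep2, with a log2 difference of 0.49 (SE 0.28, limma adjusted p = 0.311). The family sum averaged 68966 ± 14399 in CBA and 46853 ± 8109 in rep2 (SD, n = 3 each), a log2 difference of 0.55 (SE 0.24, limma adjusted p = 0.114). As a share of repeat signal it averaged 3.59% ± 0.646 in CBA and 2.42% ± 0.407 in rep2 (two-sided exact permutation p = 0.1, which is the smallest that 3 against 3 allows, 0.222 after adjustment). Of the 63 copies 51 lay above 0, with a median of 0.41. Copies of the family may share reads, so the 63 are not separate observations. By limma 9 of them had an unadjusted p under 0.05, a threshold at which all copies were not counted here. Over all copies 19801 of 33215 lay above 0, with a median of 0.20. Of the other ERV1 subfamilies 11 of 89 rose and 7 fell, with a median of 0.09, the same as over all subfamilies, of which 6.77% rose and 6.87% fell.

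A fit without rep2 tumour B kept the CBA and rep2 libraries whose names share the last part of their code. The log2 difference was then 0.69 for the family sum (limma adjusted p = 0.0760) and 0.59 for the chromosome 8 provirus (limma adjusted p = 0.277). For the chromosome 17 copy it was 1.82 (limma adjusted p = 0.00583). Rep2 tumour B had the highest rep2 values at both leading copies, 46414 and 7170.42, so leaving it out raises these differences. Its first library was also the highest of its set at both, 45361.5 and 6821. Tumour and code thus cannot be told apart here. CBA and Balb/c-2 rep2 also differed in intron share, 25.9% ± 1.38 in CBA and 18.4% ± 0.949 in rep2, and in the fibroblast marker sum, 1440 ± 336 in CBA and 2584 ± 536 in rep2. The part of these in the differences was not tested. The comparisons share groups with each other, so their differences are not independent of one another.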

How the data were processed

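Poly(A) RNA of 40 libraries in 11 groups was sequenced, and the deposited table gives a signal, the authors' normalised count, for each of 835636 repeat copies. The submitters' processing notes name build mm10 and, with no roles given, featureCounts 1.5.0-p3, HISAT2 2.0.5 and StringTie 1.3.3b. The repeat annotation, the handling of reads that match several copies and the formula of the normalisation are stated in none of the sources used here. The deposited signal values are whole multiples of what 1 read is worth in each library (1280522 to 2976730 reads recovered), which limits precision for copies of low signal.

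Member copies were taken by name, and the members and lists were chosen with earlier results of these data known. Copies and subfamily sums with a mean signal of at least 5 were tested with limma 3.58.1 in R 4.3.3 on log2(signal + 1), with 1 mean per group and a trended prior. Benjamini-Hochberg adjustment ran over 33215 copies, or over 1004 subfamilies together with the added family sums. A call needed an adjusted p under 0.05. The tool was tested on simulated data. Intervals are 95% intervals from the same fit. Shares of a library were tested with exact permutation over libraries. Named are the 8 proviruses and the 8 copies of highest mean signal, up to 3 called copies at each end of every tested comparison, and the 5 most alike copies with a mean of at least 20. Neighbours were taken within 100 kb, and places came from GENCODE M21 through bedtools 2.31.1. Alternatives were TMM and median-of-ratios scaling, pseudocounts of 0.5 and 5, a mean of at least 20 or no filter, members by the whole name, edgeR 4.0.16 and DESeq2 1.42.0 on the recovered reads, only the groups compared, a replicate block, leaving out the leading provirus or exonic copies, and leaving out each library.

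Letters name different tumours and pair libraries only between Balb/c-2 rep2 and its first libraries, per the labels. Deviations from group means correlated at 0.15 to 0.26 between libraries of the same tumour there, and at -0.20 to -0.06 between different tumours. Such deviations cancel within a group, so positive values within a tumour bring negative values between tumours. The negative values therefore give no separate information on the pairing.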

Additional observations from a re-analysis of the deposited data

Results flagged for a closer look

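Within groups of 4 or 5 libraries, 80 sets of values were screened, and 7 had a highest or lowest library far apart from the rest. Chance alone flags about 1 in 20 such sets, and whether these 7 exceed chance was not tested. The sets are not independent. Of the 7, 3 are the same library in the family sum, its share and the provirus that makes up most of it. N2.1 tumour B stood lowest of its group in the family sum (40366.5, against 58219 to 64049 in the other 4), in the family's share of the library (2.09%, against 3.07% to 3.23%) and at the chromosome 8 provirus (33125, against 48533 to 53355.5). Balb/c-1 tumour B stood highest at the chromosome 8 provirus, at 47162 against 35310.2 to 36597 in the other 3. F0 tumour C stood highest at the chromosome 3 provirus in Gm43549, at 413 against 89.9 to 119. Balb/c-1 tumour A stood highest at the chromosome 2 copy in Gm14230, at 129.9 against 77.8 to 80.3. F1 tumour B stood highest at the provirus at chr8:25122677-25130656, at 24.8 against 4.39 to 6.58.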

How the results depend on the processing

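The family sum without the leading provirus, or without exonic copies, gave other values than the whole family, since what remained was mostly the chromosome 17 copy. Without exonic copies the log2 difference was -0.26 in F0 against YUMM1.7, 0.21 in F2 against F0, -0.36 in N2.1 against F2, -0.67 in Balb/c-2 against Balb/c-1 (-0.14 with all copies) and 0.99 in CBA against Balb/c-2 rep2 (limma adjusted p = 0.0347). Without the leading provirus it was -0.24, 0.20, -0.34, -0.63 and 0.97 (limma adjusted p = 0.0317) in the same order, so the sign turned in the first 2 and the CBA family sum passed. With only the groups compared in the fit, the CBA family sum also passed (0.55, limma adjusted p = 0.0484). The cause was not tested. With the tumour as a replicate block and only the 6 libraries of Balb/c-2 tumours, an alternative chosen after seeing the data, the family sum passed at 0.12 (limma adjusted p = 0.00871). A replicate block by letter over all groups, where letters do not pair tumours, gave family differences of 0.40, -0.29, -0.18, -0.15, 0.12 and 0.55 in the 6 tested comparisons and changed no call of the family sum.

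In Balb/c-1 against F2, 7 copies of the family were called, 4 without a filter, 8 by edgeR and 10 by DESeq2, and 4 to 8 when 1 library was left out. The chromosome 6 fragments kept their calls under every alternative that tested them, while without a filter the calls on chromosomes 2, 4, 8, 14 and 16 were lost. In CBA against Balb/c-2 rep2, 0 copies were called with TMM scaling, median-of-ratios scaling, no filter, edgeR or DESeq2, and 0 to 1 when 1 library was left out. Leaving out 1 library gave ranges of 0.32 to 0.48 for the family sum in F0 against YUMM1.7, -0.36 to -0.05 in F2 against F0, -0.42 to -0.11 in Balb/c-1 cells against F2, -0.31 to -0.04 for Balb/c-2 set against Balb/c-1, -0.018 to 0.29 in rep2 against the first Balb/c-2 libraries (-0.018 without rep2 tumour B) and 0.39 to 0.69 in CBA against rep2. In Balb/c-2 against Balb/c-1 the range was -0.20 to 0.041 at the chromosome 8 provirus, above 0 without Balb/c-1 B or Balb/c-2 A or C, and -0.037 to 0.17 for the remaining copies, below 0 without Balb/c-2 B. In rep2 against Balb/c-2 the chromosome 17 copy ranged from -0.51 to 0.60, below 0 without Balb/c-2 C or rep2 B. In the N2 passages, the family difference of N2.3 against N2.1 ranged from -1.01 to -0.68, and that of N2.1 against F2 from -0.18 to 0.13. With 3 to 5 tumours a group, the precision is limited for copies of low signal, and only 63 of the 507 copies had enough signal to test.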
